A study of Saccharomyces cerevisiae with 18 samples.

Results

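Loss of TAH1 was compared with the wild type in budding yeast whose Rvb1 carried a tag. The comparison used 6 of the 18 RNA sequencing libraries of the series, 3 of the Rvb1-tagged TAH1 deletion and 3 of the Rvb1-tagged wild type. It covered the 5799 of 7126 listed features that had a mean of at least 10 normalized counts over these 6 libraries. The other 1327 features fell under that filter, 500 of them with 0 in all 6 libraries.

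All strains were BY4741, a haploid laboratory strain of mating type a, and every strain, wild type included, had a tagged Rvb1 or Rvb2. The other groups of the series were a PIH1 deletion with tagged Rvb1 and the wild type, PIH1 deletion and TAH1 deletion with tagged Rvb2, each with 3 biological replicates. The cultures, 5 ml each, were kept at 30 °C in the glucose-based rich medium YPD and taken at OD600 values from 1.2 up to 1.5. Their poly(A)+ RNA was sequenced. The labels give neither the kind of tag nor the number of independent clones, so each p-value reflects only how far these cultures varied.

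Tah1 is a small cochaperone that binds the chaperone HSP90. With Pih1 and the paired AAA+ ATPases Rvb1 and Rvb2 it forms the R2TP complex, which helps to assemble box C/D snoRNPs, RNA polymerase II and the PIKK family of kinases. Rvb1 and Rvb2 are also subunits of the INO80 and SWR1 chromatin remodellers. Some regulators recur below: Pdr1 and Pdr3 drive genes of drug efflux, Aft1 drives iron uptake, Pho4 drives phosphate uptake, and Gcn4 drives amino acid synthesis.

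Each of these regulators has a short DNA motif, and promoter windows of strongly changed genes of those pathways are shown here as examples, with every match to the motif, on either strand, in capitals. All windows were read from the RefSeq yeast genome of the sacCer3 build, 5′ to 3′ on the strand named. The first sets are sites CCGCGG, bound by Pdr1 and Pdr3, before PDR5 and CIS1, which fell.
PDR5, chrXV:619333-619372, plus strand: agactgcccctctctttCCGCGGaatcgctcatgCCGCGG
PDR5, chrXV:619511-619550, plus strand: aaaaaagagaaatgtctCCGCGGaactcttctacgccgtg
CIS1, chrXII:822894-822933, minus strand: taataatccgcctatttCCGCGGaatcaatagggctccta
The next are Aft1 sites, TGCACCC, before FIT2 and FIT3, which fell.
FIT2, chrXV:1059248-1059288, plus strand: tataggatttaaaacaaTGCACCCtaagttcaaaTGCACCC
FIT3, chrXV:1061317-1061357, minus strand: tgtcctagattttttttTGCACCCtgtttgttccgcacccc
The Pho4 core, CACGTG, which Cbf1 also binds, stood before PHO84 and VTC3, which rose.
PHO84, chrXIII:26214-26253, minus strand: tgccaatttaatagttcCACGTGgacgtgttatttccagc
PHO84, chrXIII:26192-26231, minus strand: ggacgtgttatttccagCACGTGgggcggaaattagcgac
VTC3, chrXVI:517307-517346, minus strand: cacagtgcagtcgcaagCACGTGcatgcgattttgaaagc
The last is a Gcn4 site, TGACTC, before ARG4, which rose.
ARG4, chrVIII:141559-141598, minus strand: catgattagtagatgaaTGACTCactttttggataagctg

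The labels were checked first. TAH1, on chromosome III at 224399 to 224734, had 185, 185 and 156 normalized counts in the wild type and 2, 2 and 3 in the deletion. PIH1 had 162, 162 and 146 against 164, 146 and 156. LEU2, URA3 and MET17, which BY4741 lacks, were at 0 in all 6 libraries. Genes of a-cells summed to 12871 to 13976 in the wild type and 17631 to 18821 in the deletion. Genes of alpha-cells summed to 436 to 449 and 387 to 425, and their defining MF(ALPHA)1 lay at 0 to 2. Normalized counts summed to 5013249 to 5412654 per library, with 6367 to 6422 features above 0.

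Replicate 2 of the wild type stood apart from its group. The root mean square log2 difference over all tested genes was 0.181 between wild type replicates 1 and 3, but 0.42 and 0.405 from either of them to replicate 2. Replicate 2 lay closer to the 3 deletion libraries, at 0.383, 0.312 and 0.298, than replicates 1 and 3 did, at 0.411 to 0.432. Counts of changed genes per list are therefore given with and without it, and so are single genes where it ended the call or moved the change against the wild type by over 1.5 times. Counts per list of the difference from the strains with tagged Rvb2 are given only with it.

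A gene is said to rise or fall where its adjusted p was under 0.05 with limma, in a fit of all 18 libraries to log2(normalized count + 1) with 1 mean per group. Values are normalized counts per library, and changes are log2 values of the deletion minus the wild type ± SE, n = 3 libraries per group. Fits without replicate 2 rest on wild type replicates 1 and 3 alone. Replicate 2 was set aside with its values known, which lowers the spread and moves the wild type away from the deletion. Smaller p-values in those fits are therefore not stronger evidence. In all 623 genes (10.7% of those tested) changed. Of these 366 (6.31%) rose and 257 (4.43%) fell, and 27 and 30 of them changed more than 2-fold. Higher genes made up 58.7% of the calls, but 45.5% when libraries were scaled to equal totals (261 higher, 312 lower) and 45.4% with quantile normalization (269 and 323). The groups did not overlap for 1303 genes (22.5%), 531 of them among the calls.

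Without wild type replicate 2, 1820 genes (31.4%) changed, 1014 (17.5%) higher and 806 (13.9%) lower. Of the 623 calls 602 were kept, 21 were lost and 0 changed sign, and 1218 were added; 90.7% of all tested genes kept their sign. When only the 6 compared libraries were fitted, 72 genes (1.24%) passed, 71 of them among the 623. There the spread rests on these libraries alone and on fewer residual degrees of freedom. Leaving replicate 2 out of that fit too left fewer still, and 1890 genes passed. Across all 17 alternative settings 64 genes passed each time, 34 higher and 30 lower.

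**Figure D1:**
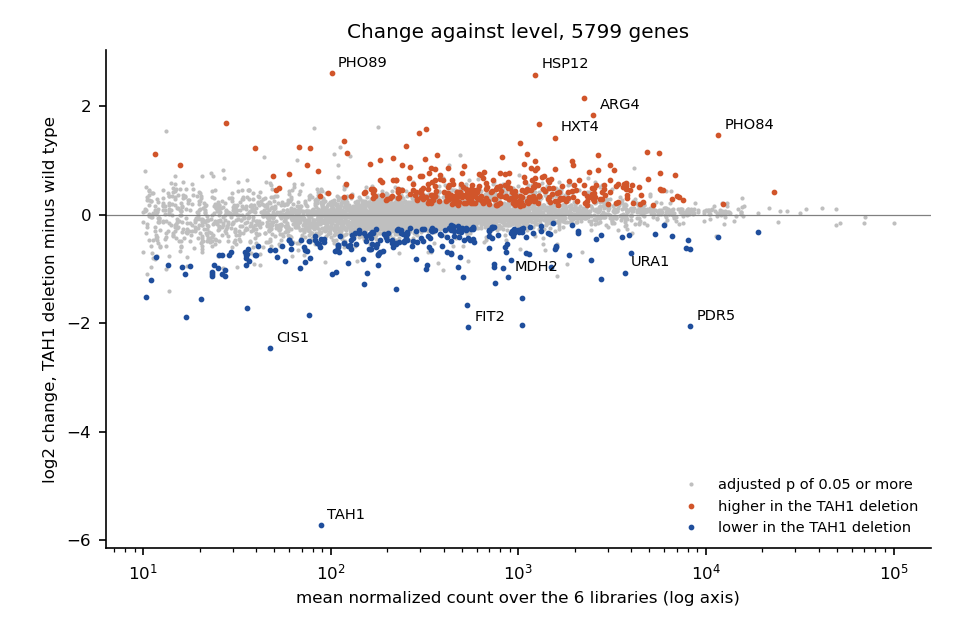
Log2 change of the TAH1 deletion against the wild type (y axis) by mean normalized count over the 6 libraries (log x axis) for 5799 genes, with the 366 higher and 257 lower genes coloured. TAH1 lies lowest at -5.73, and PHO84 and PDR5 are highly expressed genes that moved in opposite directions.

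Drug efflux genes fell as a group. Of 21 tested targets of Pdr1 and Pdr3, 15 fell and 0 rose, with a median change of -0.47 against 0.01 over all tested genes. Without wild type replicate 2 the counts were again 15 and 0, although 1 gene, HXT11, had lost its call, and with only the 6 libraries fitted 10 fell. PDR5, the main ABC drug efflux pump of the plasma membrane, had 12547, 14151 and 12976 counts in the wild type and 3254, 3114 and 3231 in the deletion. The groups lay far apart and replicate 2 was the highest library. PDR5 fell by 4.13-fold (-2.05 ± 0.08, adjusted p = 6.6e-12).

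CIS1, another gene of this regulon, fell from 84, 78 and 80 to 17, 12 and 13 (-2.46 ± 0.26, adjusted p = 8.2e-06). PDR15, a pump related to PDR5, fell from 926, 560 and 947 to 236, 269 and 244 (-1.66 ± 0.16, adjusted p = 2.9e-06). Here replicate 2 lay below the other wild types and still above every deletion library. LAF1 had 701, 692 and 701 counts against 302, 325 and 317 (-1.15 ± 0.06, adjusted p = 4.8e-10), with an SD of 5.2 in the wild type and 11.7 in the deletion.

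Several lipid genes of the list fell too. PDR16, a phosphatidylinositol transfer protein, fell from 1394, 1463 and 1386 to 833, 823 and 899 (-0.73 ± 0.05), and RSB1, a sphingoid base transporter, from 248, 220 and 236 to 121, 140 and 108 (-0.93 ± 0.13). IPT1 and LAC1, which act in sphingolipid synthesis, fell by 0.39 and 0.28, while ICT1, a lysophosphatidic acid acyltransferase, had a change of -0.10 (adjusted p = 0.44). The pumps SNQ2 and YOR1 fell by 0.38 and 0.39. PDR3, one of the regulators, had 589, 596 and 611 counts against 426, 412 and 456 (-0.47 ± 0.07, adjusted p = 0.0004). Its partner PDR1 had 475, 493 and 465 against 443, 412 and 444 (-0.14 ± 0.05, adjusted p = 0.094). In this list 8 genes passed every alternative setting. HXT11, which resembles other hexose transporter genes so closely that reads may be shared, had an adjusted p of 0.076 without replicate 2.

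Iron uptake genes fell too, mostly those of the siderophore route, by which yeast takes up iron bound to chelators. Of 9 tested siderophore genes 7 fell and 0 rose, with a median of -0.91. Without replicate 2 again 7 fell, and with only the 6 libraries 5 did. FIT2, a cell wall mannoprotein that retains siderophores, had 986, 778 and 849 counts against 261, 151 and 216 (-2.08 ± 0.16, adjusted p = 1.5e-07). FIT3 had 1780, 1594 and 1654 against 445, 369 and 405 (-2.04 ± 0.08, adjusted p = 2e-11). Both separated the groups by far more than the spread within them. The transporters ENB1 (1198, 941 and 1150 against 537, 573 and 545), ARN2 (573, 745 and 585 against 312, 304 and 350) and ARN1 (612, 629 and 623 against 397, 313 and 374) fell by 0.98, 0.97 and 0.79.

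Among 22 tested genes of reductive uptake and iron sparing, 6 fell and 2 rose, with a median of -0.18 (7 and 1 without replicate 2, and 2 and 0 with only the 6 libraries). TIS11, which promotes decay of mRNAs of iron-using proteins, fell from 345, 282 and 346 to 136, 99 and 139 (-1.38 ± 0.14, adjusted p = 5e-06). CCC2, the copper pump that loads the ferroxidase Fet3, fell from 388, 327 and 372 to 202, 187 and 229 (-0.81 ± 0.11). FET3 itself had 5917, 6168 and 6015 against 5040, 4333 and 4763 (-0.36 ± 0.06, adjusted p = 0.0012), while its permease partner FTR1 had 2952, 3264 and 3017 against 3018, 2865 and 3275 (-0.01 ± 0.06, adjusted p = 0.92). CCC1, which stores iron in the vacuole, and VHT1, a biotin transporter, were the pair that rose, by 0.26 and 0.35, and CCC1 lost its call without replicate 2 (adjusted p = 0.06). AFT1 had 631, 616 and 622 against 590, 563 and 546 (-0.14 ± 0.05, adjusted p = 0.081).

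Genes of phosphate supply rose. Of 22 tested genes of phosphate uptake and phosphatases 11 rose and 0 fell, and of 11 genes of vacuolar polyphosphate 5 rose and 0 fell; without replicate 2 the counts were 13 and 2, and 8 and 1. With only the 6 libraries 5 and 4 rose. PHO84, the high-affinity phosphate transporter, had 5362, 8133 and 5394 counts in the wild type and 17720, 16614 and 16497 in the deletion. Replicate 2 was the highest wild type and stayed well below the deletion libraries. PHO84 rose 2.74-fold (1.46 ± 0.11, adjusted p = 1.5e-07), and by 1.65 without replicate 2.

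The sodium-coupled transporter PHO89 rose from 21, 26 and 19 to 302, 46 and 190 (2.61 ± 0.50, adjusted p = 0.0026), with deletion libraries that differed widely among themselves. SPL2, a small protein that lowers low-affinity phosphate uptake, rose from 159, 163 and 125 to 395, 319 and 356 (1.26 ± 0.32). PHO8, the vacuolar alkaline phosphatase, rose from 851, 818 and 817 to 1649, 1447 and 1415 (0.86 ± 0.06, adjusted p = 8.2e-08). The acid phosphatase PHO5 had 528, 1078 and 578 against 1465, 1446 and 1581 (1.11 ± 0.17, or 1.44 without replicate 2), and replicate 2 lay between the groups. PHO11 and PHO12 are near-identical copies, and PHO5 and PHO3 are related genes, so reads may be split among them. The regulators PHO81, an inhibitor of the Pho80-Pho85 kinase, and PHO86, needed for Pho84 to leave the endoplasmic reticulum, rose by 0.53 and 0.49. PHO4 had 513, 557 and 482 against 567, 580 and 477 (0.06 ± 0.09, adjusted p = 0.68).

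VTC1 to VTC4, which encode the polyphosphate polymerase complex of the vacuole, rose under all 17 alternative settings. VTC3 had 1638, 1892 and 1576 counts against 3773, 3363 and 3748 (1.09 ± 0.08, adjusted p = 7.5e-08). VTC4, the catalytic subunit, had 2214, 2546 and 2221 against 4167, 3824 and 4328 (0.82 ± 0.06). VTC1 and VTC2 rose by 0.79 and 0.57. In each of these genes replicate 2 was the highest wild type and no deletion library reached down to it.

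**Figure D2:**
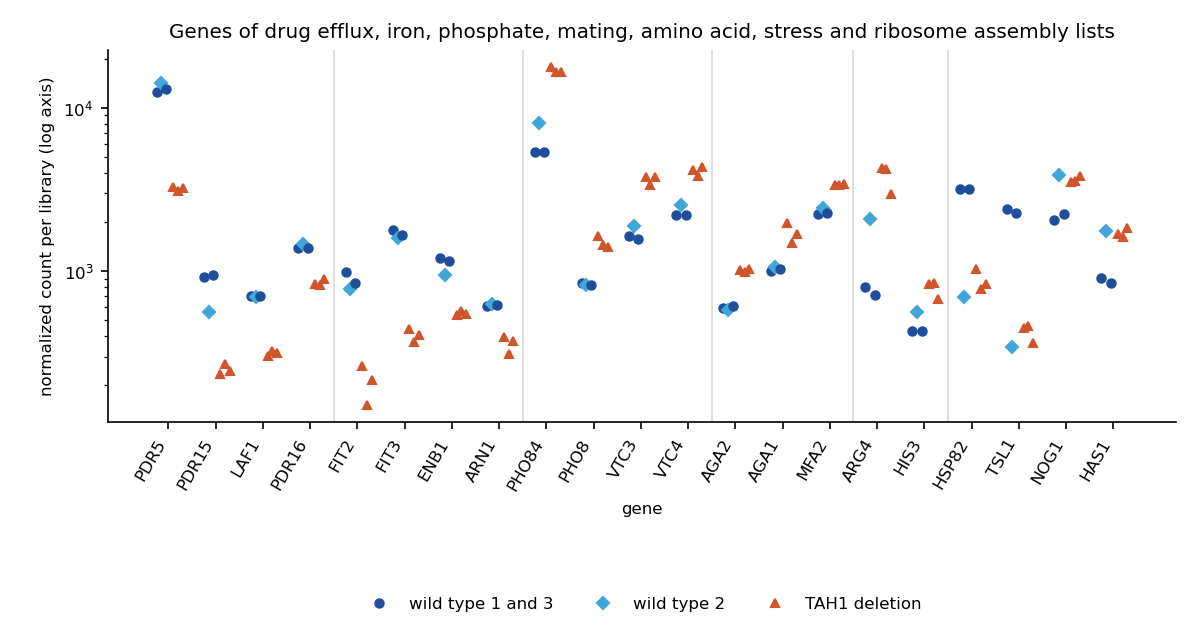
Normalized counts (log y axis) of 21 genes in each of the 6 libraries. For genes of drug efflux, iron, phosphate and mating the lighter diamond of wild type replicate 2 lies nearer the other wild types, while for HSP82, TSL1, NOG1 and HAS1 it lies among or beyond the deletion libraries.

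Motif matches in the 600 bases before the start codon were counted on both strands for 5551 tested genes. The lists were drawn up around known targets of these regulators, so matches are a description of the members. CCGCGG was found before 11 of the 15 drug efflux genes that fell (73.3%), 0 of the 6 others and 3.68% of all 5551 genes. TGCACCC was found before 12 of 13 iron genes that fell (92.3%), 10 of the 18 others (55.6%) and 2.7% of all. CACGTG stood before 15 of 16 phosphate genes that rose (93.8%), 5 of the 17 others (29.4%) and 7.31% of all. PDR5 alone held 4 matches, SPL2 held 4 and FIT2 held 4. Windows can run into the neighbouring gene.

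**Figure D3:**
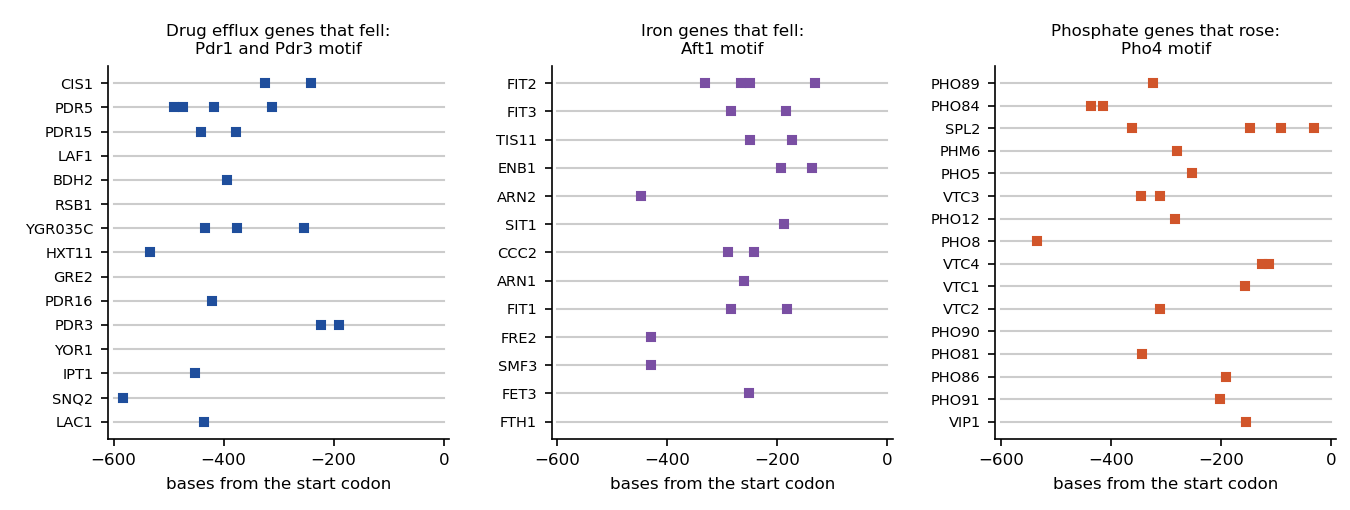
Positions of the motifs in the 600 bases before the start codon (x axis, bases from the start codon) for drug efflux genes that fell, iron genes that fell and phosphate genes that rose, 1 line per gene in order of change. Squares are matches on either strand, and lines with no square are genes such as LAF1 and PHO90 with no match in the window.

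Mating genes of a-cells rose. Of 7 tested a-cell genes 5 rose and 0 fell, with or without replicate 2, and of 15 pheromone response genes 5 rose and 0 fell (6 and 2 without it). With only the 6 libraries 2 rose in either list. AGA2 and AGA1 encode the subunits of the a-agglutinin that joins mating cells. AGA2 had 598, 575 and 609 counts against 1018, 982 and 1025 (0.76 ± 0.08, adjusted p = 4.7e-06), and AGA1 had 1007, 1058 and 1032 against 1960, 1489 and 1690 (0.72 ± 0.08). The a-factor gene MFA2 had 2227, 2450 and 2279 against 3360, 3375 and 3425 (0.55 ± 0.06). The alpha-factor receptor STE2 (4640, 5451 and 4945 against 7041, 6732 and 6676) rose by 0.45, and FAR1, which arrests the cell cycle in response to pheromone, by 0.43. Of 4 tested alpha-cell genes 2 fell and 0 rose, with or without replicate 2. STE3 (26, 27 and 28 against 4, 10 and 7) and AFB1 (96, 93 and 85 against 58, 51 and 63) fell by 1.88 and 0.67, while MF(ALPHA)2 and SAG1 had changes of 0.19 and 0.05 (adjusted p = 0.55 and 0.71). No overlap between the groups was seen for the genes named here that rose or fell.

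Amino acid synthesis rose, with wild type replicate 2 between the groups in the list medians, though not in every gene. Of 56 tested Gcn4-type genes 36 rose and 0 fell, with a median of 0.43, and 45 rose without replicate 2. Of 15 arginine genes 9 rose and 1, ARG82, fell (11 and 1 without replicate 2). With only the 6 libraries these counts dropped to 3 Gcn4-type genes and 0 arginine genes. ARG4, the last enzyme of arginine synthesis, had 795, 2094 and 712 counts against 4254, 4225 and 2970 (1.83 ± 0.29, adjusted p = 0.00054), and ARG1, the step before it, had 387, 1371 and 362 against 2068, 2088 and 1454 (1.67 ± 0.38, adjusted p = 0.0079). Replicate 2 lay just below the lowest deletion library in ARG1. Without it the changes were 2.32 and 2.30.

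Genes of leucine synthesis separated the groups better. LEU4 had 1966, 2495 and 1977 against 4303, 4232 and 3545 (0.91 ± 0.09, adjusted p = 3.1e-06) and LEU1 had 3339, 3347 and 3274 against 4315, 4103 and 4329 (0.36 ± 0.04). ARO9, an aromatic aminotransferase, rose from 255, 176 and 281 to 552, 514 and 431 (1.09 ± 0.15, adjusted p = 0.00018), and replicate 2 was its lowest wild type. HIS3, of which BY4741 keeps a part, rose from 430, 562 and 431 to 835, 846 and 679 (0.73 ± 0.09). The Gcn4 motif TGACTC stood before 35 of 45 arginine and amino acid genes that rose (77.8%), 16 of the 26 others (61.5%) and 15.8% of all genes.

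Purine synthesis followed, with 12 of 20 tested genes higher and 0 lower (16 and 0 without replicate 2, and 0 of either kind with only the 6 libraries). ADE1 had 2064, 2965 and 2271 against 3500, 4341 and 3422 (0.63 ± 0.12, adjusted p = 0.0026). Of 30 sulfate and methionine genes 10 rose and 0 fell (15 and 0 without replicate 2, and 1 and 0 with only the 6 libraries), among them MET22, a phosphatase of sulfate assimilation, with 519, 645 and 561 against 974, 884 and 824 (0.64 ± 0.08). Of 12 pyrimidine genes 1 rose and 2 fell, with a median of 0.09 (4 and 2 without replicate 2). FUR4, the uracil permease, rose by 0.56, and it was URA1 (4488, 5801 and 4629 against 2182, 1911 and 3147) and URA4 (1311, 1427 and 1316 against 775, 748 and 979) that fell, by 1.07 and 0.70.

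In carbon metabolism the list of respiratory chain and ATP synthase genes held 18 that rose and 0 that fell of 36, with a median of 0.25, 16 and 1 without replicate 2, and 0 of either kind with only the 6 libraries. COX4, a subunit of cytochrome oxidase, had 695, 545 and 673 counts against 916, 909 and 837 (0.48 ± 0.09, adjusted p = 0.002). Replicate 2 was the lowest library here. HXT4, a hexose transporter, rose from 809, 899 and 824 to 2168, 2698 and 1985 (1.42 ± 0.19, adjusted p = 0.00011). HXK2, the main hexokinase on glucose, fell from 9457, 10965 and 9474 to 6103, 6505 and 6619 (-0.63 ± 0.07, adjusted p = 1.3e-05), and MDH2, the cytosolic malate dehydrogenase, from 1202, 1265 and 1157 to 593, 393 and 695 (-1.15 ± 0.20).

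Ribosome assembly genes show how much rests on replicate 2. With all libraries 1 of 36 genes of the small subunit processome and 3 of 40 large subunit assembly factors rose, and without replicate 2 all 36 and all 40 did. HAS1, an RNA helicase, had 912, 1755 and 850 counts against 1696, 1620 and 1835. Replicate 2 lay among the deletion libraries and the change was 0.63 ± 0.18 (adjusted p = 0.034), or 0.96 without it (adjusted p = 8e-08). The GTPase NOG1 had 2047, 3856 and 2226 against 3500, 3551 and 3822 (0.48 ± 0.16, adjusted p = 0.057), or 0.76 without replicate 2 (adjusted p = 4e-07). Proteins of snoRNPs, which R2TP helps to build, numbered 1 higher of 13, and 11 without replicate 2. NOP1, the methyltransferase of box C/D snoRNPs, had 3832, 5803 and 3816 against 5377, 5635 and 5752 (0.35 ± 0.12, adjusted p = 0.064), or 0.55 without replicate 2 (adjusted p = 5.3e-06).

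For chaperone and stress genes the counts also grew without replicate 2, but towards lower values. Of 12 tested genes of HSP90 and its cochaperones 2 fell and 0 rose, and without replicate 2 these counts were 8 and 2. With only the 6 libraries 0 passed, as for the ribosome assembly, trehalose and general stress lists. HSP82, the inducible HSP90, had 3186, 699 and 3177 counts against 1024, 777 and 832, so replicate 2 lay below every deletion library (-1.14 ± 0.36, adjusted p = 0.053; -1.87 without it, adjusted p = 6.4e-12). STI1, a cochaperone that links HSP70 to HSP90, had 2895, 1453 and 2743 against 1290, 1343 and 1410 (-0.75 ± 0.16, adjusted p = 0.007; -1.06 without replicate 2). TSL1, of trehalose synthesis, had 2400, 343 and 2259 against 446, 464 and 365 (-1.54 ± 0.47, adjusted p = 0.047; -2.46 without replicate 2), and its list gave 1 lower of 15, or 10 without replicate 2. General stress genes gave 3 higher and 1 lower of 30, and 3 and 12 without replicate 2. HSP12, a membrane-protecting stress protein, rose from 366, 163 and 303 to 4419, 570 and 1542 (2.58 ± 0.49, adjusted p = 0.0025), with deletion libraries far apart. Of 7 mitochondrial chaperones 4 fell and 0 rose (5 and 0 without replicate 2, and 1 and 0 with only the 6 libraries), and HSP10 had 2088, 1638 and 1997 against 1263, 1274 and 1282 (-0.58 ± 0.07). What sets replicate 2 apart was not tested.

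**Figure D4:**
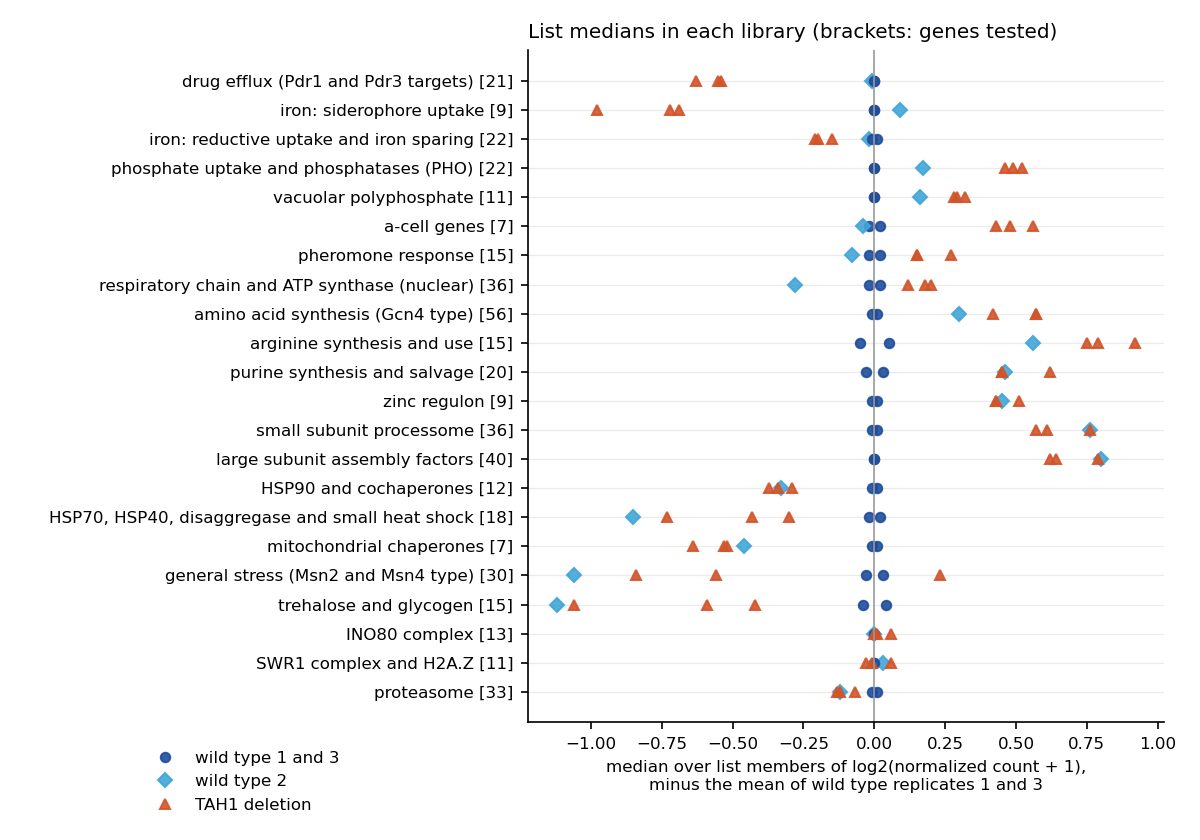
Median over list members of log2(normalized count + 1) in each library, relative to the mean of wild type replicates 1 and 3 (x axis), for 22 lists. Wild type replicate 2 lies within 0.2 of 0 for drug efflux, iron, phosphate and mating lists, and at or beyond the deletion libraries for ribosome assembly, HSP90, trehalose and zinc lists.

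RVB1 was the R2TP gene other than TAH1 that changed. It had 925, 1031 and 969 counts against 508, 491 and 504 (-0.96 ± 0.08, adjusted p = 1e-06), and RVB2 had 915, 948 and 886 against 877, 992 and 968 (0.04 ± 0.07, adjusted p = 0.72). In the strains with tagged Rvb2, loss of TAH1 went with a change of 0.87 for RVB1 and -0.76 for RVB2, so in each background the RNA of the tagged gene fell after the deletion. Whether the tag takes part was not tested. The neighbours of TAH1 were lower as well, YIH1 with 457, 530 and 434 against 338, 372 and 358 (-0.41 ± 0.11) and TVS1 with 275, 135 and 271 against 148, 141 and 105 (-0.73 ± 0.21, or -1.07 without replicate 2).

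Lists of the other complexes and clients of Rvb1 and Rvb2 are short, so that 10.7% of their members, the share over all tested genes, is about 1 gene each. In the INO80 complex 0 of 13 genes passed the test (1 without replicate 2), in SWR1 with H2A.Z 0 of 11 (1), and among PIKK kinases with their partners 0 of 9 (2). Of 12 RNA polymerase II subunit genes 1 rose, and 5 without replicate 2. Proteasome genes (0 of 33), histones (0 of 9) and ribosomal proteins (0 of 81 and 0 of 56) did not pass either (5 lower, 0, 9 higher and 1 lower, and 8 higher and 1 lower without replicate 2), with medians of -0.06, -0.07, 0.05 and 0.05. Of 40 small nuclear and nucleolar RNAs 1 rose, and 5 without replicate 2, although RNAs without a long poly(A) tail are poorly sampled by this method. The 30 mitochondrially encoded features all fell under the filter.

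The same deletion in strains with tagged Rvb2 shares no library with this comparison, but both take their spread from the same fit of 18 libraries. There 2588 genes (44.6%) changed. Of the calls made here 260 went the same way there, 41.7% of the calls here and 10% of those there, and 111 the opposite way (17.8% and 4.29%). The difference between the backgrounds, tested as an interaction, passed for 1421 genes (24.5%), 273 of them (43.8%) among the 623.

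In the tagged Rvb2 strains 12 of 21 drug efflux genes fell and 2 rose, and 6 of 9 siderophore genes fell and 0 rose. PDR5 changed by -1.75 ± 0.08 with tagged Rvb2, and the difference of -0.29 ± 0.11 had an adjusted p of 0.056. FIT2 changed by -1.89 ± 0.16 there (difference -0.19 ± 0.23, adjusted p = 0.62). LAF1 and FIT3 fell further here, with differences of -0.64 and -0.89 (adjusted p = 1e-05 and 1.6e-05), and GRE2, a reductase of the efflux list, fell by 0.73 here against a change of 0.18 there.

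Of the 22 phosphate genes 4 rose and 11 fell with tagged Rvb2, against 11 and 0 here. PHO84 averaged 5923 counts in the Rvb2-tagged wild type and 318 in its TAH1 deletion, a change of -4.21 ± 0.11 against 1.46 here (difference 5.67 ± 0.16, adjusted p = 8.5e-14). SPL2 averaged 161 and 5.67 there (difference 6.0 ± 0.45), and the difference was 2.73 for PHO5 and 2.33 for VTC3. In all 12 of 22 phosphate genes and 7 of 11 polyphosphate genes had a higher change here, and 3 and 0 a lower one. The 3 were PHO85 (-0.99), GDE1 (-1.16) and PHM8 (-0.98), which rose with tagged Rvb2. PHO85 and GDE1 lie on chromosome XVI, and whether gene dosage takes part was not tested. The mating genes also differed. A higher change here was seen for 5 of 7 a-cell genes and 10 of 15 pheromone response genes, and a lower one for 0 and 1. For AGA1 the change was higher here (difference 2.00 ± 0.11, adjusted p = 1.3e-09). Ribosomal protein genes, which did not pass here, were lower there in 59 of 81 and 45 of 56 cases, and the difference passed in the higher direction for 50 and 41.

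**Figure D5:**
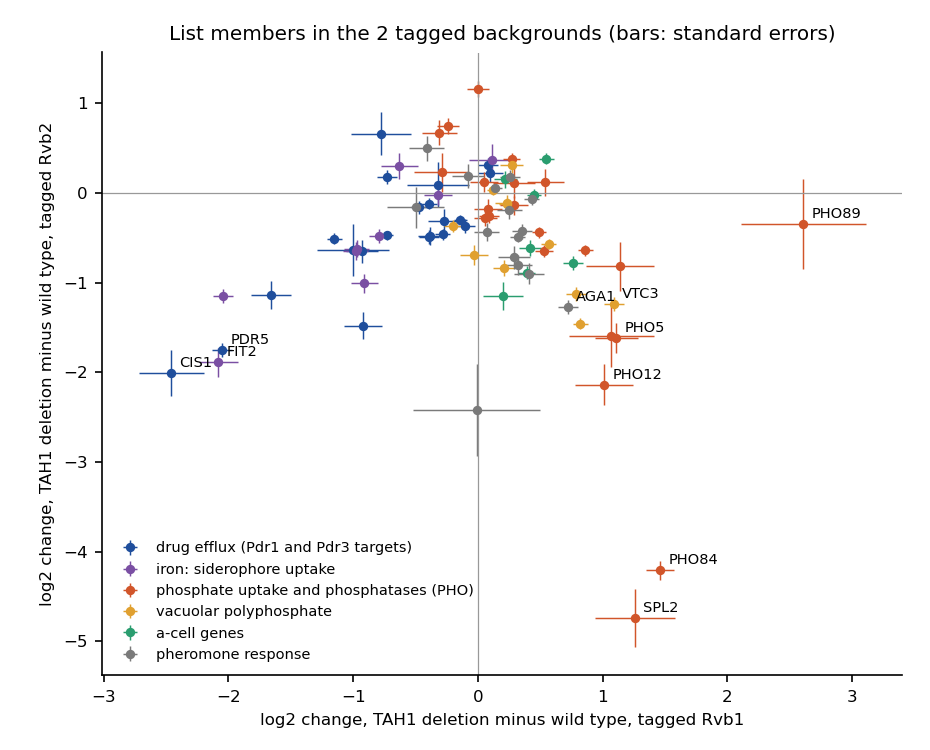
Log2 change after TAH1 deletion with tagged Rvb1 (x axis) and with tagged Rvb2 (y axis) for members of 6 lists, with standard errors. Drug efflux and siderophore genes such as PDR5 and FIT2 lie low in both, while PHO84 and SPL2 lie right of 0 and far below it.

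Deletions of TAH1 and PIH1 were compared directly with tagged Rvb1, leaving the shared wild type out of the contrast. The level differed for 1547 genes (26.7%), 284 of them (45.6%) among the 623. PDR5 averaged 2826 ± 94.1 (SD) in the PIH1 deletion and 3200 ± 75.1 in the TAH1 deletion (0.18 ± 0.08, adjusted p = 0.093), and FIT3 differed by 0.21 (adjusted p = 0.073). Other genes of these pathways differed: 1 of 21 drug efflux genes stood higher and 7 lower in the TAH1 deletion, among them GRE2 (-0.95) and PDR16 (-0.66). Of 9 siderophore genes 4 stood higher and 0 lower, such as FIT2 (0.65, adjusted p = 0.0058), and TIS11 stood higher by 1.17. Phosphate genes stood higher in the TAH1 deletion in 12 of 22 cases and lower in 2, with PHO84 at 2345 ± 74.6 in the PIH1 deletion and 16944 ± 675 in the TAH1 deletion (2.85 ± 0.11, adjusted p = 8.3e-12). Gcn4-type genes were higher in 35 of 56 and purine genes in 13 of 20. Proteasome genes were lower in the TAH1 deletion in 31 of 33 cases, as for PRE7 (-0.53 ± 0.06, adjusted p = 3.4e-06), and 8 of 12 HSP90 and cochaperone genes were lower, HSC82 by 0.71.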

How the data were processed

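RNA was measured in 18 libraries, of which 6 are compared here. The authors' deposited normalized counts (a signal per gene, rounded to whole numbers; the factor per library is not given in the sources used here) were the measurement. The deposited FPKM values, rounded too and treated as a score, were an alternative. TopHat2 2.0.3, DESeq2 1.6.3 and sacCer3 were used, per the submitters' processing notes; which counting tool, annotation, strand setting and filters were applied is not stated there. Reads of overlapping or antisense genes can therefore not be told apart.

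Values were analysed as log2(normalized count + 1) with limma 3.58.1 in R 4.3.3, with an intensity trend, 6 group means over all 18 libraries, two-sided tests and p-values adjusted by Benjamini-Hochberg across all 5799 genes. The fold change scale understates changes of low genes. Depth cannot be read from normalized values, so no counting interval is given. The code was tested on simulated data. The simulated libraries all varied alike, and none stood apart as wild type replicate 2 does. That test therefore cannot show how many of the calls here are false. Replicate numbers were not used to pair the libraries in the main fit. Of the identifiers 6162 matched RefSeq and 964 did not, 188 of these among the genes tested.

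Genes and lists were chosen with earlier results of these data known. Named genes come from the 15 largest rises and 15 largest falls among calls whose groups do not overlap, up to 4 members per list by adjusted p, the R2TP genes, the neighbours of TAH1, the strain markers, the 5 rises and 5 falls that moved most without wild type replicate 2, the 5 highest and 5 lowest in each other contrast among the calls, and all members of the phosphate, iron, drug efflux and arginine lists. MFA1 and VIP1 fall outside this rule, chosen with their values in view. The results of 2 genes are not reported here. The title of 1 Rvb2-tagged wild type library was followed where its source field differed. The alternatives were pseudocounts, filters, scalings, library weights, the FPKM table, a replicate block and other sets of libraries. Each compared library was also left out in turn, but no library outside the comparison was left out singly.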

Additional observations from a re-analysis of the deposited data

Results flagged for a closer look

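The log2 change after TAH1 deletion differed between the strains with tagged Rvb1 and those with tagged Rvb2 for the genes listed here, tested as an interaction with limma at an adjusted p under 0.05. That test passed for 24.5% of all genes, so a difference is common. Values are the log2 change with tagged Rvb1 minus that with tagged Rvb2, and no cause was tested. Phosphate and polyphosphate genes had a higher change with tagged Rvb1: the difference was 5.67 for PHO84, 6.0 for SPL2, 3.15 for PHO12, 2.96 for PHO89, 2.73 for PHO5, 2.33 for VTC3, 2.28 for VTC4, 1.96 for PHM6, 1.92 for VTC1, 1.50 for PHO8, 1.17 for PHO81, 1.13 for VTC2, 0.93 for PHO86 and 0.35 for VIP1. Mating genes of a-cells and of the pheromone response: the difference was 2.00 for AGA1, 1.55 for AGA2, 1.28 for BAR1, 1.04 for MFA1, 0.80 for SST2, 0.78 for FUS3, 0.50 for FAR1 and 0.46 for STE2. Genes of amino acid, purine and methionine synthesis: the difference was 2.63 for ARO9, 2.02 for ARG4, 1.94 for ARG1, 1.48 for ARG7, 1.40 for ADE1, 1.11 for MET22, 1.09 for ADE13, 0.94 for LEU4, 0.74 for BAT1, 0.43 for HIS3 and 0.26 for LEU1. Genes of carbon metabolism, respiration and pyrimidine synthesis: the difference was 2.07 for MDH2, 1.44 for URA1, 0.97 for COX4, 0.65 for URA4 and 0.62 for COX13. MDH2, URA1 and URA4 fell with tagged Rvb1, and their positive differences mean a larger fall with tagged Rvb2. MDH2 changed by -1.15 with tagged Rvb1 and by -3.21 with tagged Rvb2. Some drug efflux and iron genes had a lower change with tagged Rvb1: the difference was -1.43 for HXT11, -0.93 for FIT1, -0.91 for GRE2, -0.89 for FIT3, -0.64 for LAF1, -0.32 for FTH1, -0.31 for PDR3, -0.31 for ARN1, -0.27 for PDR16 and -0.27 for IPT1. The lower change held for 6 of 21 drug efflux genes and 3 of 9 siderophore genes, with 0 higher. Of 22 genes of reductive uptake and iron sparing 5 had a lower change. There 2 had a higher one, FRE1 by 0.64 and FET4 by 0.41. Some chaperone, mating and ribosome assembly genes and the iron regulator also had a lower change: the difference was -0.98 for NOG1, -0.25 for AFT1, -1.86 for HSP82, -1.60 for STE3, -0.85 for RSA1 and -0.64 for SSA2. NOG1 and RSA1 lie on chromosome XVI and changed by 1.46 and 1.30 with tagged Rvb2. Other genes of that chromosome also rose there, such as ISU1 (1.46), ASA1 (1.29) and RPO26 (1.24). Some fell there, such as VTC3 (-1.24) and RVB2 (-0.76). Whether gene dosage takes part was not tested. The R2TP genes and a subtelomeric gene: the difference was -1.83 for RVB1, 1.80 for TAH1, 1.78 for COS12 and 0.80 for RVB2. TAH1 averaged 0 counts in the Rvb2-tagged deletion and had 2, 2 and 3 here, so its difference rests on those few counts and on the pseudocount of 1.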

How the results depend on the processing

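Counts of genes that changed moved most with the choice of libraries. Higher and lower genes numbered 366 and 257 in the fit reported, 37 and 35 when only the 6 compared libraries were fitted, 1059 and 831 in those libraries without wild type replicate 2, and 1287 and 1078 with library weights, a fit that did not converge fully. Leaving out 1 library gave 172 to 1014 higher and 122 to 806 lower genes, with the highest count without wild type replicate 2 and the lowest without wild type replicate 3. The interaction between backgrounds passed for 1421 genes, 2504 with library weights and 1267 to 1749 when 1 library was left out. The contrast of the deletions passed for 1547, and for 1177 to 1920 when 1 was left out. Only the 6 compared libraries were left out in turn. How far both contrasts rest on single Rvb2-tagged or PIH1 deletion libraries was not tested. The cause of the shifts in counts was not tested beyond the change in spread that leaving out replicate 2 brings. Of 112 genes followed singly, 54 lost their call with only the 6 libraries and 2 without wild type replicate 2, HXT11 and CCC1. Direction changed only for genes that were not called: RVB2 (-0.02 with quantile normalization), SAG1 (-0.01 to 0.08 when 1 library was left out), PIH1 (-0.06 to 0.03 when 1 library was left out, with 0.01 without wild type replicate 1 or 2, also with only the libraries compared without replicate 2, 0.03 without deletion replicate 2 and with library weights, 0.02 with quantile normalization) and FTR1 (-0.06 to 0.03 when 1 library was left out, and 0.03 without wild type replicate 2 in either set of libraries, without deletion replicate 2 and with library weights). The replicate block gave 304 higher and 228 lower genes, 1378 for the interaction and 1456 for the contrast of the deletions. Libraries with the same number had correlations of deviations of 0.23, 0.08 and -0.22, and those with different numbers -0.27 to 0.25. Deviations within groups of 3 libraries cannot show whether libraries were prepared in pairs. Pseudocounts, filters, scalings and the FPKM table kept the counts within 1.5 times. Depth was not given, so a change in genes near the filter is measured with little precision.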
